A study of Mus musculus with 12 samples.

Results

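Heavy-chain class divided 9 mouse B cell lymphoma libraries into 4 in which the IgM constant gene gave under 50% of the heavy-chain constant counts and 5 in which it gave over 90%. The 9 are all the tumour libraries in a series of 12. The members were chosen by a measured value, the share of Ighm in the summed counts of Ighm, Ighd, Ighg1, Ighg2b, Ighg2c, Ighg3, Ighe and Igha, so the immunoglobulin counts are given as a description with no test. BIC 1, BIC 2, pBIC 3 and pBIC 4 were under 50%, and BIC 3, pBIC 1, pBIC 2, pBIC 5 and pBIC 6 were over 90%. Both classes therefore held both tumour models, with 2 BIC and 2 pBIC libraries in the first and 1 BIC and 4 pBIC libraries in the second.

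All 12 libraries came from splenic B220-positive cells sorted for a fluorescent reporter, 1 mouse per library by the design text. BIC mice carried Blimp1F/F, IKK2castopF/stopF and Cg1Cre/+, that is, floxed alleles of Blimp1 (gene Prdm1), a constitutively active form of the NF-kB kinase IKK2 (gene Ikbkb) behind a stop cassette, and a Cre recombinase. pBIC mice carried p53F/F, floxed alleles of p53 (gene Trp53), besides the BIC alleles. Both models, which the labels call ABC-DLBCL lymphoma (ABC, activated B-cell; DLBCL, a large-cell lymphoma of mature B cells), were sorted as GFP-positive cells. The 3 YC control mice carried YFPstopF/+ with the same Cg1Cre/+ and were sorted as YFP-positive cells. Cg1Cre is expressed from the IgG1 constant locus, so recombination in every group depends on transcription of that locus, as in germinal centre B cells, and the sort also keeps cells that recombined without class switching. The labels state neither the age nor the sex of the mice.

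A B cell first makes IgM and IgD from the constant exons nearest to its rearranged variable segment. In class-switch recombination DNA breaks are made at switch regions, and a downstream constant gene (IgG3, IgG1, IgG2b, IgG2c, IgE or IgA in these mice) replaces the IgM gene next to the same variable segment. Most human ABC tumours keep surface IgM, and the IgM and IgG receptors differ in the cytoplasmic tail of their membrane form, which for IgG carries a signalling motif. Constant exons are also transcribed from unrearranged germline promoters, and gene counts do not separate such transcripts from switched ones. Libraries under 50% Ighm are therefore called class-switched here by that share alone. Gene counts from bulk cells also cannot tell fewer cells of a type from less RNA per cell.

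The coding 3′ ends of the membrane transcripts of IgM and of the 3 IgG genes that led a tumour library are shown because they are where the receptor classes differ inside the cell. They are from the GENCODE M21 transcripts on GRCm38, minus strand of chromosome 12, with the last 90 coding bases printed 5′ to 3′ and the last coding exon, stop codon included, in capitals.
Ighm, last exon chr12:113418826-113418834: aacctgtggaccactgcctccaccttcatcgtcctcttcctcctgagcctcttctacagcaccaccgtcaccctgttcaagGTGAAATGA
Ighg3, last exon chr12:113357439-113357522: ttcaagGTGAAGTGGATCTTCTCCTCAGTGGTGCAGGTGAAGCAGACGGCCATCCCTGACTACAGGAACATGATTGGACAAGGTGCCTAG
Ighg1, last exon chr12:113326541-113326624: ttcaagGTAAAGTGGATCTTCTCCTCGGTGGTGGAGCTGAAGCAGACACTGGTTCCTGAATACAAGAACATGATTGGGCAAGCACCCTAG
Ighg2b, last exon chr12:113304314-113304397: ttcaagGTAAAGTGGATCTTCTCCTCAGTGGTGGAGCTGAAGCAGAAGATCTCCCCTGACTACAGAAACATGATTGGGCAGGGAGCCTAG

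The last coding exon of Ighm held 9 bases, 2 codons before the stop, and each of the 3 IgG genes held 84 bases, 27 codons before the stop. Over those 84 bases Ighg1 and Ighg2b were identical at 70, Ighg1 and Ighg3 at 68, and Ighg2b and Ighg3 at 72. The gene models the authors counted on end Ighg3 at position 113359575, before its membrane exons, while those of Ighm, Ighg1 and Ighg2b include them. Ighg3 counts thus leave out reads from the membrane end that the other 3 genes include.

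The 4 libraries under 50% did not share 1 class. Ighg3 led both BIC libraries, with 69.0% of the heavy-chain constant counts in BIC 1 (Wilson 95% interval 68.9 to 69.2) and 58.0% in BIC 2 (57.8 to 58.2). Ighg2b gave 85.2% in pBIC 3 (85.0 to 85.4), and Ighg1 gave 68.6% in pBIC 4 (68.3 to 68.8). Each of the 4 libraries had 1 dominant IgG gene, and none was led by Ighe or Igha.

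Ighm gave the second largest share in all 4, at 28.6% in BIC 1, 37.3% in BIC 2, 13.1% in pBIC 3 and 25.4% in pBIC 4. In the other class Ighm gave 92.4% in BIC 3, 95.6% in pBIC 1, 96.7% in pBIC 2, 95.7% in pBIC 5 and 93.1% in pBIC 6. No tumour library lay between 37.3% and 92.4%, which are the shares nearest to the 2 limits on the inside of each class. The 3 YC libraries, with 70.7, 73.2 and 72.6%, fell in that gap.

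Among the libraries over 90%, Ighg3 was the second gene in BIC 3 (5.65%), pBIC 1 (3.34%), pBIC 5 (3.74%) and pBIC 6 (6.36%), and Ighg2c in pBIC 2 (1.82%). IgG1, whose locus drives the Cre in every group, gave 0.0244 to 0.435% in these 5 libraries, 0.128 to 1.09% in BIC 1, BIC 2 and pBIC 3, and 6.50 to 9.62% in YC. The Ighg1 transcript was thus a minor one in all tumour libraries but pBIC 4. Ighd, which naive B cells make beside Ighm, gave 0.0889 to 1.32% in the tumour libraries and 4.57 to 4.92% in YC.

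On the CPM scale, counts divided by the library total and multiplied by 1e6, Ighm itself ran from 391 to 3172 in the libraries under 50% and from 4360 to 9024 in those over 90%. The 8 constant genes together gave 2995 CPM in pBIC 3, 4072 in pBIC 4, 7892 in BIC 1 and 8502 in BIC 2, against 4684 to 9433 in the libraries over 90%. Total constant transcript was therefore lowest in the 2 class-switched pBIC libraries, while the 2 class-switched BIC libraries lay inside the range of the other class. Dividing counts by the gene length in the files moved the Ighm shares of BIC 3 and pBIC 6 to 88.8 and 88.9%, just under the limit of 90%, and left the other libraries in their classes. Leaving Ighd out of the sum moved no library.

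**Figure D1:**
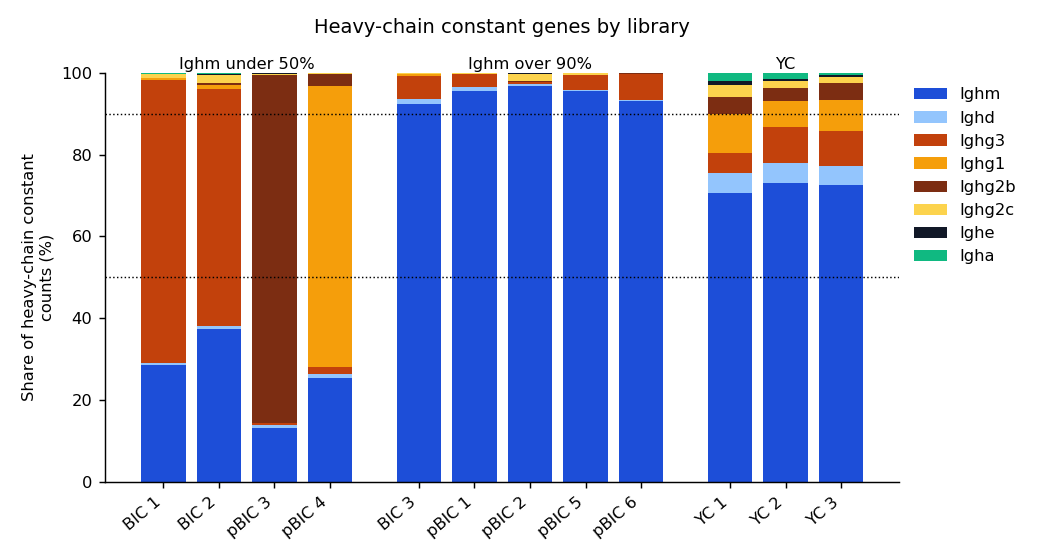
Stacked bars give the percent of heavy-chain constant counts from each of 8 genes (vertical axis) in each library (horizontal axis), with dotted lines at the 50 and 90% limits. Ighg3 fills most of BIC 1 and BIC 2, Ighg2b of pBIC 3 and Ighg1 of pBIC 4, while Ighm fills over 90% of the 5 libraries beside them.

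Variable gene usage was narrow in both classes. The most counted heavy-chain V gene took 38.4% of heavy V counts in BIC 1 (Ighv1-64), 68.3% in BIC 2 (Ighv1-9), 53.8% in pBIC 3 (Ighv3-2) and 50.9% in pBIC 4 (Ighv1-56). In the libraries over 90% it took 31.3% in BIC 3 (Ighv12-3), 35.8% in pBIC 1 (Ighv5-4), 89.1% in pBIC 2 (Ighv2-9), 94.9% in pBIC 5 (Ighv2-9) and 92.97% in pBIC 6 (Ighv9-3). In YC the leading gene took 6.59 to 8.58%, below every tumour library. The ranges of the 2 tumour classes overlapped, and the 3 highest shares were all in the class over 90%.

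Kappa V gene usage was narrow in both classes as well. The leading gene took 66.0% of kappa V counts in BIC 1 (Igkv1-135), 61.5% in BIC 2 (Igkv12-46), 92.5% in pBIC 3 (Igkv12-44) and 71.1% in pBIC 4 (Igkv5-48). It took 33.8% in BIC 3 (Igkv4-68), 62.1% in pBIC 1 (Igkv12-44), 96.1% in pBIC 2 and 99.4% in pBIC 5 (both Igkv19-93) and 86.2% in pBIC 6 (Igkv6-23). YC libraries lay between 6.35 and 11.4%. The third highest kappa share, after pBIC 5 and pBIC 2, was in pBIC 3, a library under 50%. Depth was 9638 to 77792 heavy V counts and 27895 to 171854 kappa V counts per tumour library, so counting error is small beside these gaps.

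Several libraries had a second abundant V gene. BIC 1 had Ighv1-53 at 32.6% and pBIC 4 had Ighv1-72 at 29.8% of heavy V counts. In pBIC 1 the related genes Ighv5-4 and Ighv5-12 took 35.8 and 34.0%, and reads of 1 rearrangement may be split between such related genes. The same genes took 16.3 and 16.7% in BIC 3. Igkv19-93, the leading kappa gene of pBIC 2 and pBIC 5, took 32.9% of kappa V counts in pBIC 1. BIC 2, under 50%, and BIC 3, over 90%, both held Ighv12-3 (22.5 and 31.3%) and Igkv4-91 (22.8 and 27.9%), V genes known together from B-1 cells that bind phosphatidylcholine. In YC, Ighv12-3 took 0.289 to 0.565% and Igkv4-91 0.610 to 0.999%. The 2 libraries thus shared a V gene pair across the class limit. Gene counts do not show which heavy and light chains came from the same cell.

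The V gene mixtures of pBIC 2 and pBIC 5 were nearly alike: 93.3% of their heavy V and 96.6% of their kappa V counts overlapped, counting for each gene the smaller of the 2 shares. The other 35 tumour pairs overlapped by a median of 2.17% for heavy and 2.56% for kappa V genes. Their highest values were 49.3% for heavy (BIC 3 and pBIC 1) and 64.0% for kappa (pBIC 1 and pBIC 3). The 3 YC pairs overlapped by 69.6 to 76.7% and 68.4 to 77.6%. The gene counts of pBIC 2 and pBIC 5 differed far beyond sampling noise (chi-square per degree of freedom of 129), so they are not copies of 1 library. Pairs within a model ran from 106 (BIC 1 and BIC 2) to 475 (pBIC 5 and pBIC 6). This value cannot show whether the cells of pBIC 2 and pBIC 5 share an origin, which was not tested. Both were kept, and the SE and p-values below count them as independent samples.

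**Figure D2:**
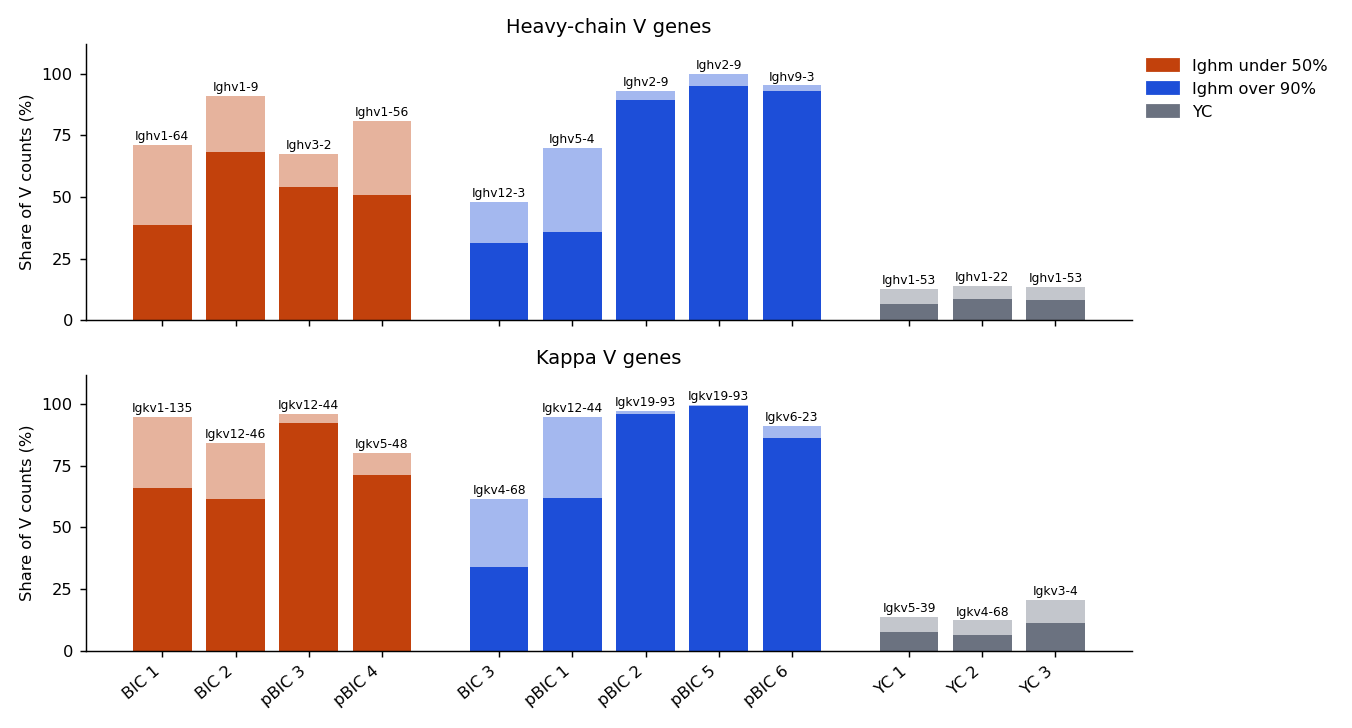
Bars give the percent of heavy-chain (top) or kappa (bottom) V gene counts in each library from the most counted gene, named above each bar, in the full colour, with the second gene stacked in the pale colour. The leading gene takes at least 31.3% in every tumour library of either class and at most 11.4% in YC.

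Outside the immunoglobulin genes, no gene passed the test between the classes. edgeR's quasi-likelihood test with a term for BIC or pBIC called 0 of 17788 genes at an adjusted p under 0.05 (0% called), with a smallest adjusted p of 0.486. At an unadjusted p under 0.05 there were 862 genes (4.85% of all tested), 491 higher (2.76%) and 371 lower (2.09%) in the libraries under 50%. DESeq2 on the same libraries and terms called 86 genes, 58 higher and 28 lower, so the count depends on the tool.

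The p-values were spread nearly evenly, with 4.61 to 5.53% of genes in each 0.05 of p. The test was limited in size: the median standard error of a log2 fold change was 0.44 over all genes and 0.27 over the 9987 genes averaging 5 CPM or more. Genes whose 4 values under 50% all lay above, or all below, the 5 values over 90% numbered 99 (0.557%) and 87 (0.489%).

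**Figure D3:**
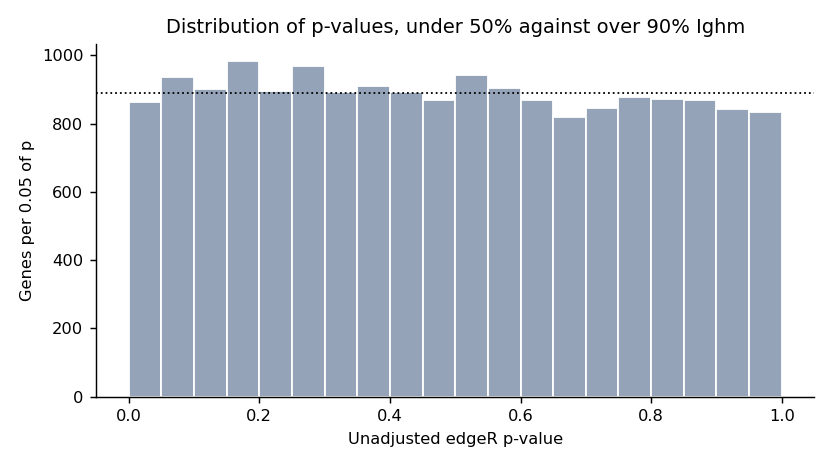
Bars give the number of genes (vertical axis) in each 0.05 of unadjusted edgeR p (horizontal axis) for the 17788 genes tested, and the dotted line gives the mean per bin. The lowest bin, with 862 genes, stands no higher than its neighbours.

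Within pBIC alone, 2 libraries against 4, edgeR called 0 of 17007 genes (0% called), with 1286 at an unadjusted p under 0.05 and a smallest adjusted p of 0.0838. DESeq2 called 334. The test of whether the class difference itself differed between BIC and pBIC called 0 of 19635 genes (0% called), with 1208 at an unadjusted p under 0.05, and DESeq2 called 221. In BIC the comparison is 2 libraries against 1 and gives values only. Of 1283 genes with a pBIC p under 0.05, 40.6% differed in the same direction in BIC, against 44.8% of all genes tested.

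Whole-transcriptome likeness followed the model more than the class. On log2 CPM, the first principal component carried 32.7% of the variance and placed the 3 BIC libraries at 80.4 to 103 and the 6 pBIC libraries at -110 to -5.20. The second component (21.3%) set pBIC 1 and pBIC 6, both over 90%, at 97.9 and 93.2 and pBIC 2 and pBIC 5, also over 90%, at -62.9 and -78.2. On the third (14.1%) pBIC 4 and pBIC 3 were highest, at 84.6 and 50.8, followed by BIC 3 at 34.9. By correlation, the nearest library was of the same model for every library. It was of the same class for 7 of 9, the exceptions being BIC 3, nearest to BIC 2, and pBIC 4, nearest to pBIC 2. The same-class count to be found without any effect of class was not computed.

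The genes with the lowest edgeR p in each direction, 9 higher and 10 lower out of those averaging 5 CPM or more, are described although none passed edgeR's adjusted threshold. DESeq2 called all 9 higher genes, with adjusted p from 2.88e-09 (Deptor) to 0.0166 (Acacb), and 5 of the 10 lower ones (Ptgs1, Pvt1, Nod2, Ppfia4 and Ptms), with adjusted p from 0.00114 to 0.0489. They were ranked on this contrast, so their separation supports nothing by itself. From here CPM are scaled to all counts outside the immunoglobulin genes, adjusted by TMM normalization factors computed over all 12 libraries. The edgeR adjusted p ran from 0.486 to 0.832 for the 9 higher genes and was 0.959 for each of the 10 lower genes.

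Deptor, which encodes an inhibitor of the mTOR kinase, was at 1.68 CPM in BIC 1, 1.38 in BIC 2, 42.5 in pBIC 3 and 7.58 in pBIC 4, against 0.0567 in BIC 3, 0.825 in pBIC 1, 1.95 in pBIC 2, 1.17 in pBIC 5 and 1.38 in pBIC 6. The high values were in the 2 class-switched pBIC libraries, and the BIC libraries overlapped the other class. The BIC 3 value was below the level of 3 counts. On the scale of library totals, not the TMM scale used here, 3 counts equal 0.0637 to 0.0841 CPM. The difference within BIC therefore rests on 1 value near the count floor. The log2 fold change was 4.34 ± 0.57 (SE, 4 against 5 libraries, edgeR adjusted p = 0.486).

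Map2, a microtubule-associated protein gene, had 52.2 CPM in pBIC 3 and 26.0 in pBIC 4 against 0.113 to 2.96 in the other 7, with a log2 fold change of 4.52 ± 0.81 (edgeR adjusted p = 0.523). The high values were again in the 2 class-switched pBIC libraries.

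Wdfy3, which encodes a scaffold protein of selective autophagy, did not overlap between classes. It was at 2.83 CPM in BIC 1, 3.01 in BIC 2, 5.46 in pBIC 3 and 32.6 in pBIC 4, against 0.623 in BIC 3 and 0.787 to 1.25 in the 4 pBIC libraries over 90% (log2 fold change 3.59 ± 0.60, edgeR adjusted p = 0.523). Cplx2, which encodes the exocytosis regulator complexin 2, did not overlap either, with 23.7, 14.6, 42.7 and 102 CPM in BIC 1, BIC 2, pBIC 3 and pBIC 4 against 3.61 to 13.7 (log2 fold change 2.73 ± 0.48, edgeR adjusted p = 0.523). Acacb, an acetyl-CoA carboxylase gene, was the third without overlap, at 39.2, 40.3, 59.1 and 81.9 CPM against 15.6 to 26.9 (log2 fold change 1.33 ± 0.27, edgeR adjusted p = 0.832). All 3 were higher in each of the 4 class-switched libraries than in any library over 90%.

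Mylip, which encodes a ubiquitin ligase for the LDL receptor, was at 99.0 CPM in BIC 1 and 75.9 in BIC 2 against 35.4 in BIC 3, and at 29.3 in pBIC 3 and 51.9 in pBIC 4 against 16.0 to 19.8 in the other pBIC libraries. It was separated within each model, and its BIC level was above its pBIC level in both classes. Its log2 fold change was 1.23 ± 0.21 (edgeR adjusted p = 0.523), and YC libraries had 87.7 to 97.1 CPM. Tfdp2, a partner of E2F cell cycle factors, had 11.6 and 8.40 CPM in BIC 1 and BIC 2 against 5.70 in BIC 3, and 42.4 and 66.9 in pBIC 3 and pBIC 4 against 8.77 to 12.2.

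Gfod1 had 43.8 and 56.3 CPM in pBIC 3 and pBIC 4 against 4.10 to 7.32 in the other pBIC libraries, and 0.994 to 1.55 against 0.680 in BIC. Tifa, an adaptor that links innate sensing to TRAF6, had 140 CPM in pBIC 4, 24.3 in pBIC 3, 23.4 in BIC 1 and 15.2 in BIC 2, against 3.12 to 17.9 in the other class. All 9 of these genes had pBIC 3 and pBIC 4 above all other pBIC libraries and BIC 1 and BIC 2 both above BIC 3. In 8 of 9 the highest library was pBIC 3 or pBIC 4, the exception being Mylip. These genes were ranked on this same contrast, so the ranking itself favours such an order. The share of all genes tested with that order was not counted.

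Pvt1, a long non-coding RNA gene next to Myc, led the lower genes and did not overlap. It was at 41.0 CPM in BIC 1, 52.1 in BIC 2, 18.7 in pBIC 3 and 19.8 in pBIC 4, against 59.1 in BIC 3, 80.3 in pBIC 1, 84.3 in pBIC 2, 71.5 in pBIC 5 and 78.4 in pBIC 6 (log2 fold change -1.50 ± 0.34, edgeR adjusted p = 0.959). The gap was wide in pBIC and narrow in BIC, with an unadjusted edgeR p of 0.00109 and an adjusted p of 0.654 for the difference between models. YC libraries were at 16.3 to 19.3 CPM, the level of pBIC 3 and pBIC 4. Myc itself had a log2 fold change of 0.27 ± 0.39 (edgeR adjusted p = 0.972).

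Ppfia4, which encodes a liprin scaffold protein, had 1.75, 1.38, 3.37 and 2.01 CPM in BIC 1, BIC 2, pBIC 3 and pBIC 4 against 15.3 in BIC 3 and 3.48 to 12.01 in pBIC (log2 fold change -2.02 ± 0.54). Lacc1, a myeloid and lymphoid enzyme gene linked to inflammatory disease, had 67.4 to 127 CPM against 135 to 169, and Wdr90, a centriole protein gene, 17.1 to 25.2 against 30.2 to 52.7. These 3 did not overlap between classes. Pecam1, the adhesion molecule CD31, had 102 to 136 CPM against 130 to 241, with pBIC 4 and pBIC 5 overlapping.

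Nod2, an intracellular sensor of bacterial muramyl dipeptide, had 2.84 and 6.82 CPM in pBIC 3 and pBIC 4 against 12.6 to 23.5 in the other pBIC libraries, and 27.8 and 31.1 in BIC 1 and BIC 2 against 44.2 in BIC 3. Ptms, which encodes parathymosin, was lower in the same way, with 16.8 and 19.7 against 41.1 to 109 in pBIC and 136 and 113 against 173 in BIC. Pea15a, a regulator of ERK and of death receptor signalling, had 6.94 and 7.97 CPM against 13.6 to 26.8 in pBIC and 31.6 and 23.8 against 47.4 in BIC. These 3 genes were separated within each model and overlapped across models.

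Ptgs1, which encodes cyclooxygenase 1, divided the class over 90% instead. It was at 58.0 CPM in BIC 3, 104 in pBIC 1 and 81.7 in pBIC 6 but at 1.18 in pBIC 2 and 2.20 in pBIC 5, level with the 1.17 to 3.34 of the 4 libraries under 50%. The log2 fold change of -4.89 ± 1.38 (edgeR adjusted p = 0.959) thus rested on 3 libraries. Pde4dip, a centrosome and Golgi anchor, was at 160 CPM in BIC 3 and 50.6 to 66.5 in the other 4 libraries over 90%, against 39.6 to 76.2 under 50%.

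**Figure D4:**
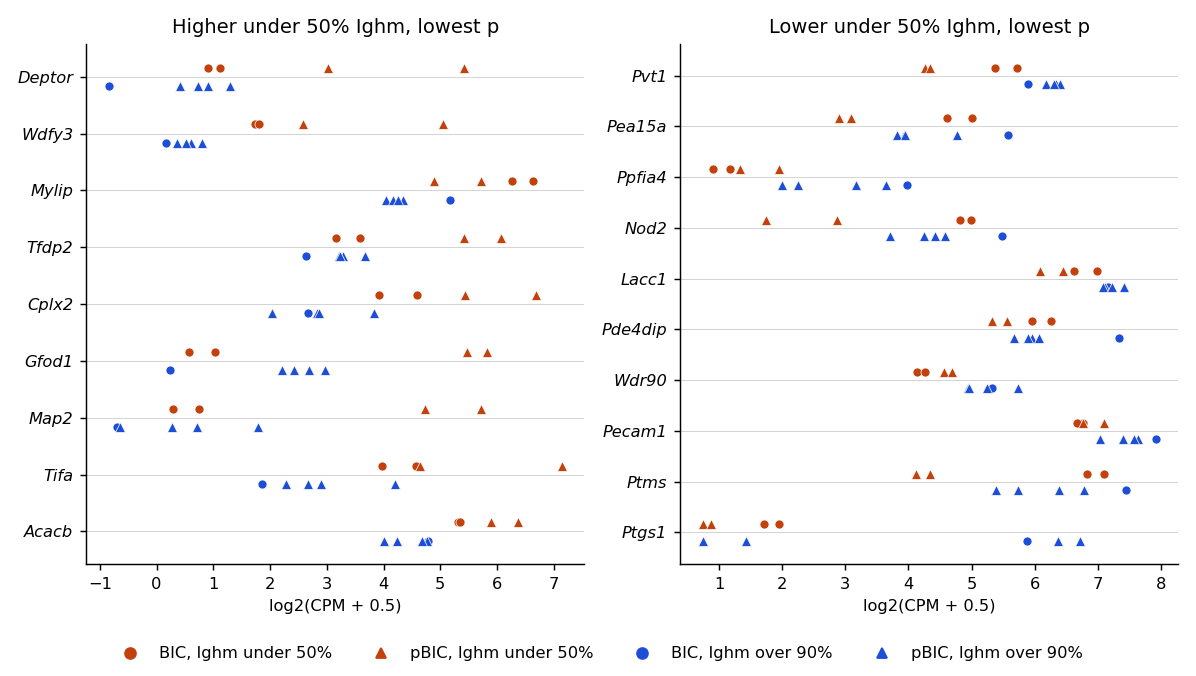
Each point is 1 library on the scale log2(CPM + 0.5) (horizontal axis) for the 9 higher and 10 lower genes described (vertical axis), with libraries under 50% Ighm in orange, those over 90% in blue, circles for BIC and triangles for pBIC. The 2 orange triangles, pBIC 3 and pBIC 4, lie to the right of all blue triangles in the 9 genes at left, and both orange circles lie to the right of the blue circle. The genes were ranked on this same contrast.

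None of the 35 tested genes of class switching and hypermutation, most of them DNA repair genes, was called. Their median was -0.01 against -0.04 over all genes tested, with 17 above 0 and 18 below. Over all genes tested, 8233 were above 0 and 9555 below. Rev1, a translesion polymerase gene, had 0.69 ± 0.30, Msh6, a mismatch repair gene, 0.59 ± 0.29, and Trp53bp1, a repair pathway factor, -0.43 ± 0.22 (log2 fold change ± SE, edgeR adjusted p = 0.959 for each). Rev1 was at 111 and 75.8 CPM in pBIC 3 and pBIC 4 against 46.6 to 104 in the other pBIC libraries, and at 68.1 and 56.4 against 29.1 in BIC. It was separated in BIC and overlapped in pBIC.

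Receptors and factors that direct switching gave 0 of 32 calls and a median of -0.22. Ifngr1, an interferon gamma receptor gene, did not overlap, at 51.5, 42.1, 43.7 and 45.4 CPM in BIC 1, BIC 2, pBIC 3 and pBIC 4 against 25.5 to 37.9 (log2 fold change 0.52 ± 0.16, edgeR adjusted p = 0.959). Tnfrsf13c, the BAFF receptor gene, had -1.02 ± 0.43 and Il21r, the interleukin 21 receptor gene, -0.98 ± 0.47. Il21r was at 45.0 and 61.9 CPM in pBIC 3 and pBIC 4 against 142 to 234 in pBIC, but at 247 and 306 against 188 in BIC. Tbx21, which encodes the factor T-bet that promotes IgG2c switching, had -1.58 ± 1.13 (edgeR adjusted p = 0.959).

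The signalling chains of the receptor differed by less than their error. Cd79a and Cd79b, the chains bound by IgM and IgG alike, had log2 fold changes of 0.01 ± 0.49 and -0.01 ± 0.36. Cd79a was at 1479 and 1365 CPM in BIC 1 and BIC 2 against 1290 in BIC 3, and at 561 and 614 in pBIC 3 and pBIC 4 against 162 to 1188. Among 23 complex and coreceptor genes 0 were called, with a median of -0.18 and 3 lower at an unadjusted p under 0.05 (background 2.09%), and Fcrl1, an Fc receptor-like coreceptor gene, had -0.89 ± 0.33. Among 33 signalling genes 0 were called, with a median of -0.26 and 28 of 33 below 0 (9555 of 17788 over all genes tested). Malt1, the paracaspase that links the receptor to NF-kB, led them at -0.68 ± 0.25, with 154 and 182 CPM in pBIC 3 and pBIC 4 against 234 to 451 and 275 and 304 against 353 in BIC.

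Plasma cell genes had a median difference of 1.09 in BIC and -0.23 in pBIC, and 0 of 25 were called. Of the 25, 10 were higher and 2 lower in both models. Of all genes tested, 44.8% had the same direction in both models, higher or lower. That share is a background for both counts added, and none is given for genes higher in both. Other lists had the same direction in both models more often. Of 29 immediate-early and heat shock genes, 19 were lower and 4 higher in both, and of 22 T cell markers, 14 and 2. At an unadjusted p under 0.05, 4 were higher (background 2.76%) and 1 lower (2.09%). Trib1, a pseudokinase gene, had a log2 fold change of 1.18 ± 0.25 (edgeR adjusted p = 0.847), at 30.3 and 42.7 CPM against 18.5 in BIC and 121 and 164 against 36.5 to 78.2 in pBIC. Fkbp11, a chaperone gene, was at 35.4 and 16.6 CPM in pBIC 3 and pBIC 4 against 1.29 to 4.77, and at 0.497 to 1.04 against 0.482 in BIC. Slamf7, a surface receptor gene, did not overlap, at 61.2 to 102 against 11.6 to 60.5 CPM, and Txndc5, a disulfide isomerase gene, overlapped, at 272 to 703 against 259 to 319. DESeq2 called Trib1 and Fkbp11.

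Prdm1, which encodes Blimp1, was at 41.7 and 32.0 CPM in BIC 1 and BIC 2 against 5.41 in BIC 3, and at 0.725 and 7.60 in pBIC 3 and pBIC 4 against 10.001 to 21.5. Whole-gene counts do not show whether its floxed part was deleted. Its log2 fold change was -0.77 ± 1.24, that of Xbp1, a factor for secretion, -0.19 ± 0.51, and that of Irf4, a factor needed for switching and plasma cells, -0.46 ± 0.54 (edgeR adjusted p of 0.973, 0.985 and 0.967). Jchain, which joins IgM and IgA polymers, ran from 1.004 to 54.1 CPM under 50% and from 0.670 to 65.1 over 90%, against 602 to 678 in YC. The highest tumour values were in pBIC 5 and BIC 1, 1 of each class. Ikbkb, the gene of the transgene kinase, was at 387 to 515 against 458 to 547 CPM, and Trp53 at 73.0 to 212 CPM in BIC and 16.4 to 32.4 in pBIC of either class.

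Germinal centre genes gave 0 of 22 calls and a median of -0.13, with 5 at an unadjusted p under 0.05, all higher (background 2.76%). In the 14 lists whose counts at that level are not given beside them, at most 3 genes per direction passed it. Cxcr4, the receptor that holds B cells in the dark zone, was at 215 and 262 CPM in BIC 1 and BIC 2 against 50.9 in BIC 3, and at 142 and 378 in pBIC 3 and pBIC 4 against 70.9 to 183. Its log2 fold change was 1.51 ± 0.43 (edgeR adjusted p = 0.959). Pou2af1, a B cell coactivator gene, was at 540 to 939 against 283 to 616 CPM (0.74 ± 0.27), and Mybl1 had 1.70 ± 0.57. Bach2, a repressor that delays plasma cell fate, was at 53.6 and 205 CPM in pBIC 3 and pBIC 4 against 5.82 to 40.3, and at 31.7 and 45.5 against 36.4 in BIC. Bcl6, the defining factor, was at 0.362 to 9.47 against 0.928 to 9.34 CPM, far under the 156 to 287 of YC.

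Follicular, memory and marginal zone lists gave 0 calls among 22, 32 and 24 genes, with medians of -0.04, -0.23 and -0.69. Vpreb3, a surrogate light chain-like gene of the follicular list, was at 38.3 and 64.8 CPM in pBIC 3 and pBIC 4 against 1.31 to 7.87 in pBIC and 1.55 to 2.49 in BIC. Foxo1, a factor of resting B cells, had 1.19 ± 0.49. Bhlhe40, a transcriptional repressor of the memory list, was at 17.8 and 17.5 CPM in pBIC 3 and pBIC 4 against 72.2 to 216, and at 19.1 and 83.6 against 69.2 in BIC (-2.32 ± 0.76, edgeR adjusted p = 0.959). Zbtb32, a repressor expressed in B-1 and memory cells, had -0.96 ± 0.36, and Cd5, the B-1a marker, -1.41 ± 0.61. Cd5 was at 28.8 CPM in BIC 3 and 17.2 in pBIC 1 and at 3.06 to 5.33 in the other 7 libraries of both classes. Cd38 had 0.02 ± 0.33.

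Type I interferon genes had the second lowest median of the 19 lists. None of 32 was called, and 7 were lower at an unadjusted p under 0.05 (background 2.09%). A log2 fold change below 0 was found in 30 (9555 of 17788 over all genes tested). The median was -0.96, made of 0.05 in BIC and -1.03 in pBIC. Dhx58, an RNA sensor gene, was at 13.2 and 16.4 CPM in pBIC 3 and pBIC 4 against 27.0 to 38.8, and at 21.8 and 22.3 against 27.7 in BIC (-0.81 ± 0.24, edgeR adjusted p = 0.959). Mx1, an antiviral GTPase gene, was at 2.43 and 2.19 against 4.77 to 29.1 CPM in pBIC and at 9.38 and 5.61 against 9.69 in BIC. Irf7 had -1.20 ± 0.45 and Usp18 -2.09 ± 0.76. With each gene centred on its mean over the 9 libraries, the list's median on log2(CPM + 0.5) was -1.18 in pBIC 3 and -0.53 in pBIC 4, but also -0.64 in pBIC 5, and 0.17 to 0.92 in the remaining 3 pBIC libraries. pBIC 4 thus lay inside the range of the class over 90%.

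NF-kB target genes had a median of -0.73, made of 0.20 in BIC and -0.96 in pBIC. Of the 43, 40 were below 0 (9555 of 17788 over all genes tested) and 0 were called. At an unadjusted p under 0.05, 7 were lower (background 2.09%) and 1 higher (2.76%). The active kinase is present in both models. The list's centred median was -0.93 in pBIC 3 and -0.80 in pBIC 4, -0.33 to 0.64 in the other pBIC libraries and 0.17 to 0.41 in BIC, so it was lowest in the 2 class-switched pBIC libraries. Tnfrsf1b, a TNF receptor gene, was at 18.9 and 22.3 against 31.0 to 51.4 CPM in pBIC and at 55.2 and 59.1 against 63.1 in BIC. Icam1, an adhesion molecule gene, was at 44.8 and 55.4 against 92.7 to 124 CPM in pBIC and at 118 and 121 against 106 in BIC. Birc3, an inhibitor of apoptosis and a target of the same pathway, lay in the other direction without overlap, at 295 to 415 against 159 to 266 CPM (0.62 ± 0.20, edgeR adjusted p = 0.959). Ccl22, a T cell attractant gene, was at most at 0.279 CPM in the class-switched libraries and at 0.397 to 12.98 in the others, and DESeq2 called it.

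Immediate-early and heat shock genes, which also respond to tissue handling, had a median of -1.05, the lowest of the 19 lists. The median difference was -0.38 in BIC and -0.82 in pBIC, below 0 in both models. Of the 29, 25 were below 0 (9555 of 17788 over all genes tested) and 0 were called. Egr3, an early growth response gene, was at 13.3 and 28.8 against 37.1 CPM in BIC and at 7.11 and 5.94 against 7.55 to 65.8 in pBIC. Hspa1a, a heat shock gene, was at 117 CPM in pBIC 1 and at 1.02 to 18.5 in the other 8. The list's centred median was highest in pBIC 1 (1.27) and pBIC 6 (1.13) and lowest in pBIC 5 (-1.06) and BIC 1 (-0.90), so both ends of the class over 90% lay outside the range of the class under 50%.

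Proliferation genes gave 0 of 40 calls and a median of -0.03, with -0.60 in BIC and 0.27 in pBIC. Aurka, a mitotic kinase gene, was at 8.79 and 9.69 against 11.96 CPM in BIC and at 17.8 and 21.6 against 27.2 to 50.6 in pBIC (-0.71 ± 0.25). MYC targets (33 genes tested) had a median of 0.02, secretion and unfolded protein response genes (28) -0.13, MHC class II genes (16) -0.22, homing receptors and integrins (28) -0.13, checkpoint ligands (33) -0.44 and BCL2 family genes (16) -0.38, with 0 called in each. Itgal, an integrin chain, had -0.85 ± 0.28 and Lgals9, a galectin gene, 0.94 ± 0.39. Bmf, a pro-apoptotic BCL2 family gene, had 1.25 ± 0.47, and Bak1, another, -0.43 ± 0.18. Several lists share members, such as Cxcr4, Bach2 and Icam1.

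**Figure D5:**
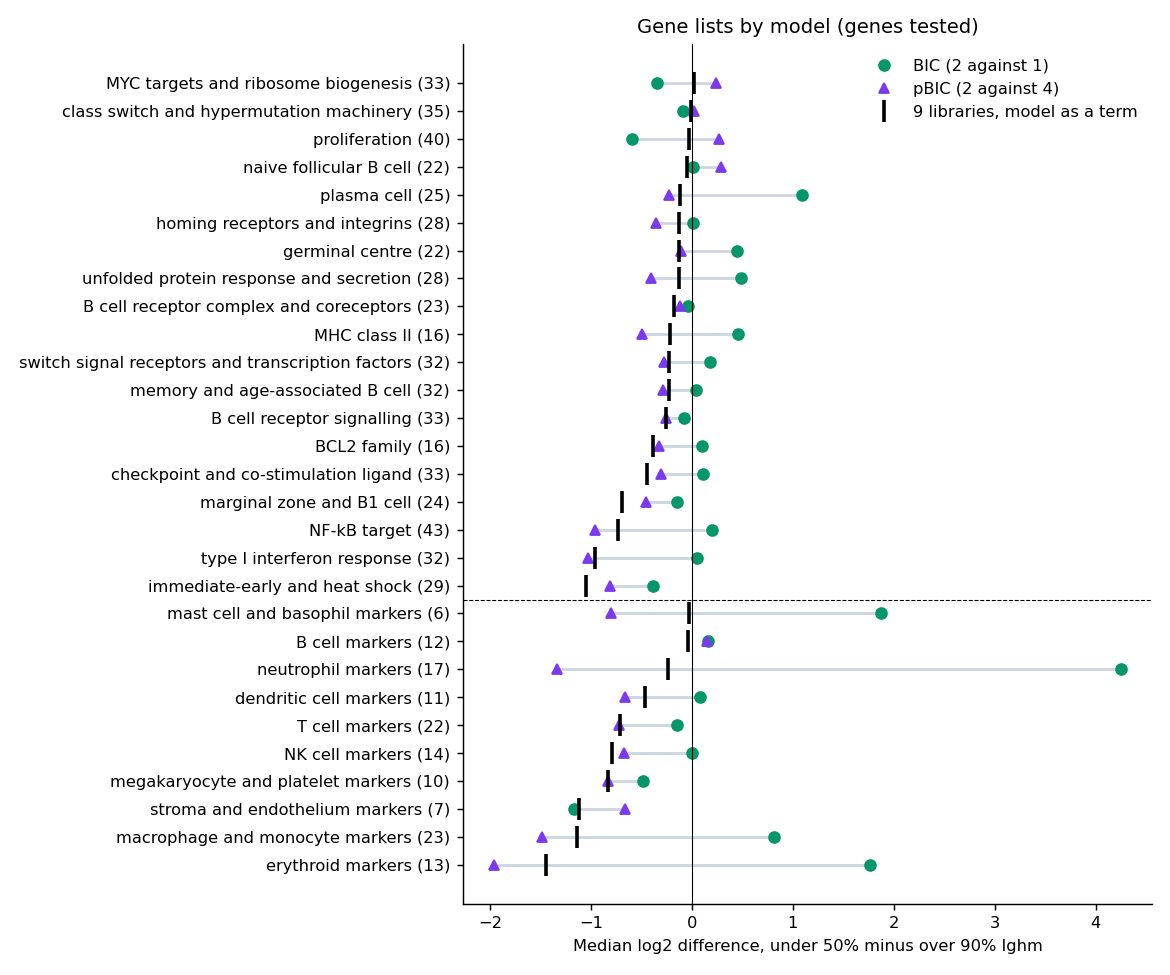
For each list, with the number of genes tested in brackets, the horizontal axis gives the median log2 difference between libraries under 50% and over 90% Ighm in BIC (green circle), in pBIC (purple triangle) and in the fit over 9 libraries (black bar); marker lists of cell types are under the dashed line. BIC and pBIC lie on opposite sides of 0 for most lists, and neutrophil markers are farthest apart, at 4.25 and -1.33.

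Summed markers of neutrophils and macrophages lay in opposite directions by class in the 2 models. The 18 neutrophil markers summed to 1125 CPM in BIC 1 and 1824 in BIC 2 against 86.1 in BIC 3, and to 13.9 and 21.0 in pBIC 3 and pBIC 4 against 16.8 to 113 in the other pBIC libraries. The 24 macrophage and monocyte markers summed to 902 and 920 CPM against 517 in BIC and to 114 and 127 against 237 to 581 in pBIC. The class-switched pBIC libraries thus held the lowest macrophage sums among tumours and the class-switched BIC libraries the highest, and the part of these cells in the list medians was not tested. Erythroid markers had the lowest median log2 fold change, -1.45, made of 1.77 in BIC and -1.96 in pBIC. Of the 13 tested, 12 were below 0 (9555 of 17788 over all genes tested). The erythroid marker sums overlapped, at 154 to 414 CPM under 50% and 149 to 658 over 90%. Macrophage markers had a median of -1.14, stroma and endothelium markers -1.12, megakaryocyte markers -0.84, NK cell markers -0.80, T cell markers -0.71 and dendritic cell markers -0.47, beside -0.96 for the interferon list and -0.73 for the NF-kB list. The neutrophil gene S100a8 was at 166 and 282 CPM in BIC 1 and BIC 2 against 11.5 in BIC 3. Lyz2, the lysozyme gene of macrophages, was at 135 and 165 against 80.8 CPM in BIC and at 2.23 and 20.3 against 14.9 to 235 in pBIC. Among the macrophage markers, Vsig4 was at 0 counts in all 9 libraries, Fcgr1 at 0 in pBIC 3 and pBIC 4, Cd163 at 0 in pBIC 1 and pBIC 3, Marco at 0 in pBIC 1 and Lyz1 at 0 in pBIC 3, whereas no T cell marker was at 0 in any library.

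The 12 B cell markers summed to 5234 to 12280 CPM under 50% and to 3620 to 11960 over 90%, so the labelled cell type was present in both classes, and 0 of 12 were called. The 22 T cell markers summed to 90.5 to 480 CPM against 160 to 382, with pBIC 3 lowest. The classes also mixed the sexes as read from transcripts: Xist was at 1506 CPM or more in BIC 1 to 3, pBIC 2, pBIC 4 and pBIC 5, and 4 Y-linked genes summed to 301 and 302 CPM in pBIC 3 and pBIC 6. In pBIC 1 Xist was at 2.60 and the Y-linked sum at 5.54 CPM, near neither pattern. With a term for Xist added, edgeR called 0 genes.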

How the data were processed

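RNA of 12 sorted B cell samples was sequenced as read pairs, per the labels' protocols. The authors deposited raw counts per gene, 1 table per library; per the file headers these counts were made with featureCounts 1.5.0 over exons of GENCODE M13 genes, without strand and with the mates of a pair counted separately, and without multi-mapping reads, so near-identical V and constant genes are uncertain. The submitters' processing notes name STAR and builds mm10 and GRCm38. Names came from GENCODE M21 (50462 of 50686 identifiers; the rest held up to 0.0174% of a library). Total counts ran from 35687568 to 47067627 in the tumour libraries, and 3 counts, the limit a count of 0 allows, equal 0.0637 to 0.0841 CPM.

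The 429 immunoglobulin genes were removed, and the counts were fitted with edgeR 4.0.16 (R 4.3.3; TMM, filterByExpr with a minimum count of 10, robust quasi-likelihood) with terms for class and model, adjusted by Benjamini-Hochberg over all genes tested and called at 0.05. A script set the class from the share of Ighm. SE is the absolute log2 fold change over the square root of F. DESeq2 1.42.0, other normalization, filters, terms and left-out libraries were the alternatives. Lists are described by counts and medians with no set test. The members, gene lists and marker lists were chosen with earlier results of these data known. Genes were named by lowest p (10 per direction, of which 1 higher gene is not reported here, a mean of at least 5 CPM, no immunoglobulin, T cell receptor, clone-named genes or pseudogenes), as up to 4 members per list in order of p, or from a list taken whatever the value; V genes beyond the leading one of each library were named after their values were seen. The code of the fit was run on simulated counts that had a smaller spread than these data and no difference between models. That run does not show the power of the test here. Wilson intervals cover counting error only and treat mates as independent. The samples are separate mice by the design text, and p-values measure the spread between them. The replicate numbers were not treated as pairs. Deviations of same-numbered BIC and pBIC libraries correlated at -0.08, 0.17 and 0.11, and so few values cannot exclude a shared batch.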

Additional observations from a re-analysis of the deposited data

Results flagged for a closer look

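Dixon's test at the 95% level set 1 library apart from its class in 5 of 62 combinations of a named gene and a class. The chance rate of about 1 in 20 assumes that the libraries of a class are alike. It does not hold here, because the class over 90% mixes 1 BIC library with 4 pBIC libraries and many genes were ranked on this contrast. BIC 3, the only BIC library over 90%, was the one set apart in 4 of the 5. There Mylip was at 35.4 CPM with the 4 pBIC libraries at 16.0 to 19.8, Gfod1 at 0.680 with the others at 4.10 to 7.32, Pde4dip at 160 with the others at 50.6 to 66.5, and Trp53, floxed in pBIC only, at 212 with the others at 16.4 to 25.4. In the class under 50%, Xist was at 4.27 CPM in pBIC 3 and at 1706 to 2663 in the other 3 libraries.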

How the results depend on the processing

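The edgeR count of 0 calls was also 0 with RLE size factors, with immunoglobulin genes in the library sizes, without the model term, with all 12 libraries, with the 6 pBIC libraries only and with a term for Xist. The replicate number as a block also gave 0 calls, and the main fit did not treat the numbers as pairs. DESeq2 called 86 genes, 58 higher and 28 lower, among them the list members Trib1 and Fkbp11 (higher) and Bhlhe40, Ccl22 and Pdgfrb (lower). Without the low-count filter edgeR called 2, both higher (Deptor and Lrrn4, the latter named after its value was seen). Leaving out 1 library gave 0 to 5 calls, 0 to 4 higher and 0 to 1 lower: without BIC 3, where only pBIC informs the class, the calls included Atg4c, Tmem255a and Gfod1 (higher) and Pvt1 (lower), and without pBIC 4 Deptor was called. Atg4c and Tmem255a were named after their values were seen. Within pBIC, DESeq2 called 334 genes, edgeR without the filter 36, and leaving out 1 library gave 0 to 1 (1 without pBIC 4, where pBIC 3 alone is under 50%). For the difference between models the counts were 221 with DESeq2 and 9 without the filter. The causes of these differences were not tested. No other setting moved these counts.

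Of 558 directions of 31 named genes, 501 stayed on their side, 18 passed the threshold and 39 reversed, in 11 genes that were all far from it. Without the model term the log2 fold change was 0.47 for Cd79b, 0.63 for Prdm1, 0.25 for Trp53, 0.24 for Bcl6, 0.33 for Xbp1 and 0.49 for Tbx21. With the replicate block it was -0.0407 for Cd79a, 0.58 for Xbp1, -0.30 for Cd38 and -2.10 for Xist. With all 12 libraries Cd79a was at -0.00475. In pBIC alone Cd79a was at -0.0791, Ikbkb at 0.0507, Trp53 at 0.34 and Cd38 at -0.0701. With the term for Xist, Cd79b was at 0.13 and Cd38 at -0.0426.
Leaving out 1 library gave -0.19 to 0.34 for Cd79a, -0.14 to 0.32 for Cd79b, -1.91 to 0.78 for Prdm1, -0.17 to 0.047 for Ikbkb and -0.35 to 0.34 for Trp53. The ranges were -1.61 to 0.36 for Bcl6, -1.01 to 0.12 for Irf4, -0.89 to 0.25 for Xbp1, -0.32 to 0.32 for Cd38 and -3.97 to 0.86 for Xist.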
